A study of Brassica napus with 6 samples.

Results

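Genes on unplaced scaffolds are those rows of the rapeseed (Brassica napus) count table whose ID begins with Bnascaffold, in place of the chromosome name that other IDs carry. They were 6103 of 100194 genes. The other 94091 genes, called placed genes below, begin with BnaA (43246 genes, A subgenome) or BnaC (50845 genes, C subgenome). Polyadenylated RNA from shoot apices of chamber-grown plants was sequenced in 6 libraries, 3 from BnaC3.lfy△I2 plants (below, the mutant) and 3 from the wild-type cultivar Westar. In the mutant the second intron of the C3 copy of LEAFY, a transcription factor gene of floral meristem identity, had been deleted. The series asked what this intron contributes to inflorescence formation. The sources used here do not give how the deletion was made, how many lines carried it, the plants' age, or whether plants were pooled. The p-values therefore reflect differences among individual libraries only, part of which may be technical.

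An unplaced scaffold is a stretch of assembled sequence that could not be anchored to a chromosome. Repeats and near-identical copies are common reasons for this in plant genomes, and in an allotetraploid such as rapeseed the A and C subgenomes hold many similar gene pairs. Gene models on short scaffolds are often fragments, or parts of mobile elements, while a long scaffold can carry ordinary gene-rich sequence. The IDs do not tell which subgenome a scaffold belongs to, and none of the 6103 scaffold IDs (0) matched the RefSeq gene table of the Da-Ae assembly. The IDs of placed genes were not matched to it, so this is not shown to be particular to scaffold genes. The deposited table does not pair IDs with names, so the genes below are given by ID, with no function, and neither the edited LEAFY copy nor markers of the shoot apex were checked here. No gene, peak or promoter sequence of these scaffolds was at hand, so none is shown.

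The libraries held 15922207 to 19017318 counts in the mutant and 17797615 to 23261028 counts in Westar. No pair of libraries matched within counting noise (the lowest chi-square per gene was 7.82), so all 6 were kept as separate samples. That lowest value belonged to mutant library 1 and Westar library 2, and the lowest within a genotype was 8.73. Libraries that stood apart on a chromosome were mutant library 3, whose A10 genes lay at a median of -0.32 on the log2 scale against the other 5 libraries, and Westar library 1, whose C09 genes lay at -0.08. Results that rest on these libraries are given with and without them.

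The scaffold genes fell into 5 large scaffolds and many small ones. The IDs named 1633 scaffolds. The 5 largest carried 712, 279, 204, 96 and 76 genes, 1367 in all, and the next largest carried 18. The remaining 1628 scaffolds, called small below, shared 4736 genes, and 554 of them had a single gene. This division by gene number uses no counts, but it was made after the data had been seen.

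Most genes of small scaffolds had 0 counts in all 6 libraries, and most genes of the large scaffolds had counts. How multi-mapping reads were counted is not known, so 0 counts do not show that a gene was silent. In bulk tissue, fewer cells of a type and less RNA per cell cannot be told apart. Over all scaffolds, 3530 genes (57.8%) had 0 counts in all 6 libraries, 1631 (26.7%) had reads but stayed below the filter for tests, and 942 (15.4%) passed it, with 10 or more counts in at least 3 libraries. On the 5 largest scaffolds 24.4% of the genes had 0 counts throughout and 59.1% passed (808 of 1367). On small scaffolds 67.5% had 0 counts and 2.83% passed (134 of 4736). Among placed genes 30.7% had 0 counts and 50.9% passed. The 5 largest scaffolds thus held 22.4% of the scaffold genes, 85.8% of those tested and 94.8% of the scaffold counts.

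Among small scaffolds the share of genes at 0 counts was lower on those with more genes. Scaffolds with a single gene had 85.6% of their genes at 0 counts throughout, those with 2 genes 73.3%, those with 3 to 5 genes 66.3%, those with 6 to 10 genes 59.9% and those with 11 to 20 genes 58.9%. The share that passed the filter was 1.81%, 1.57%, 2.82%, 3.31% and 5.43% in the same order of size, so even the upper classes stayed far from the 59.1% of the 5 largest. In all, 927 of the 1633 scaffolds had no counted read in any library. Tested genes lay on 88 of the small scaffolds, 59 of which had 1 tested gene and 20 of which had 2.

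**Figure D1:**
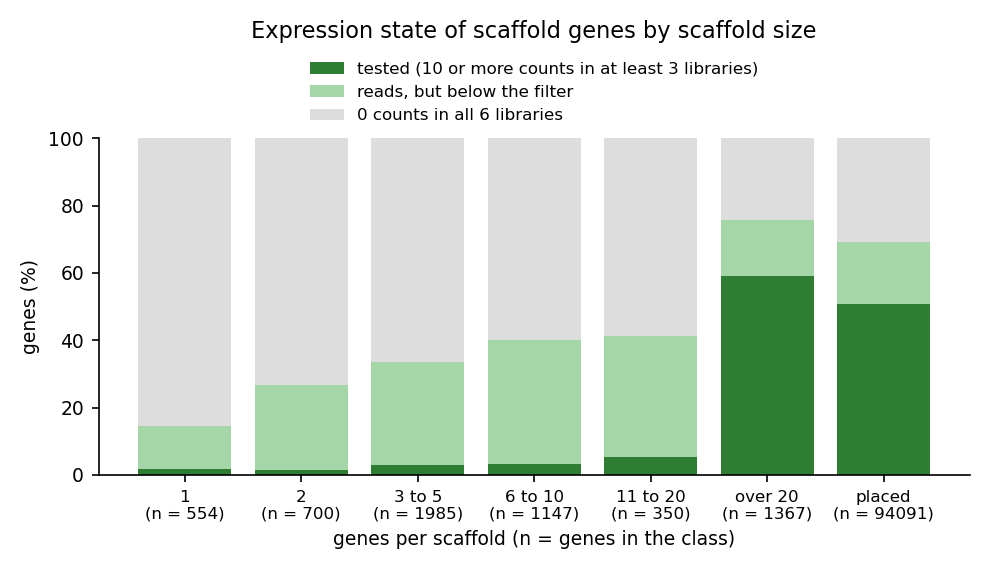
Bars give the percentage of genes that were tested, had reads below the filter, or had 0 counts in all 6 libraries, by the number of genes on the scaffold, with placed genes at the right; n is the number of genes. The tested share is at most 5.43% in each class up to 20 genes per scaffold and 59.1% on scaffolds with over 20 genes, against 50.9% of placed genes.

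The same division held in every library. With a minimum of 10 counts, 15.3%, 15.1% and 14.8% of scaffold genes were detected in mutant libraries 1, 2 and 3, and 16.1%, 15.1% and 15.3% in Westar libraries 1, 2 and 3. Westar library 1, the most deeply sequenced, was the highest, and the groups overlapped. Scaffold genes averaged 15.3% over the 6 libraries and placed genes 50.3%, a difference of -35.1 percentage points (SD 0.333 between libraries, lower in 6 of 6; exact two-sided sign-flip permutation test over libraries, p = 0.031, the smallest that 6 libraries allow). This test takes the library as the replicate, and says nothing of the spread between genes.

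The large and the small scaffolds differed from placed genes in opposite directions. Genes of the 5 largest scaffolds were detected at 58.7% on average, 8.36 points above placed genes (SD 0.399, higher in 6 of 6 libraries; exact sign-flip permutation p = 0.031). Genes of small scaffolds were detected at 2.76%, a difference of -47.6 points from placed genes (SD 0.316, lower in 6 of 6; exact sign-flip permutation p = 0.031). These were among 9 comparisons of scaffold with placed genes, and after adjustment over the 9 each p of 0.031 became 0.0469. With any 1 library left out, the smallest p that 5 libraries allow is 0.0625.

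**Figure D2:**
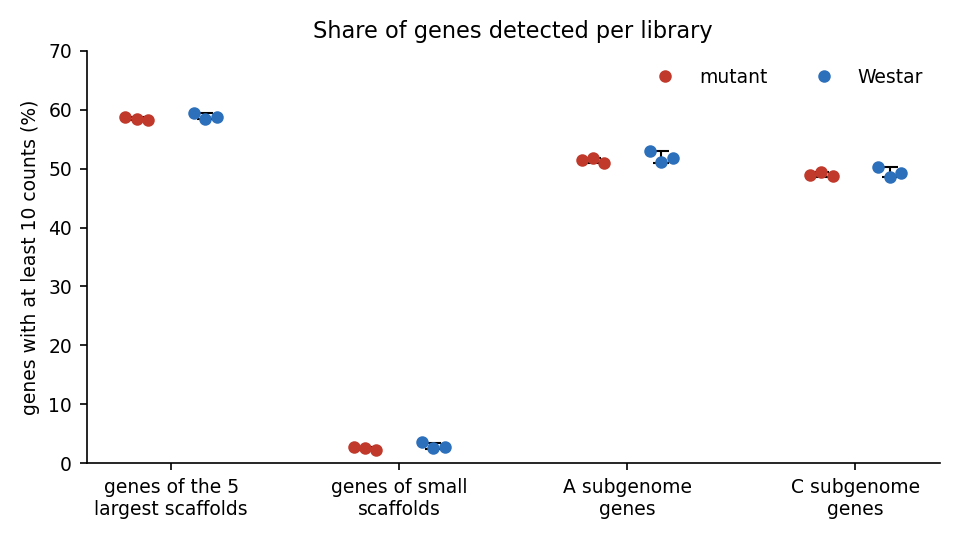
Points are libraries (mutant left and Westar right in each class), the vertical axis is the percentage of genes with at least 10 counts, and bars are the mean ± SD of 3 libraries. Genes of the 5 largest scaffolds lie at 58.3% to 59.4%, above both subgenomes, and genes of small scaffolds at 2.28% to 3.57%.

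No difference between the mutant and Westar in the share of scaffold genes detected passed a test. All scaffold genes stood at 15.1% ± 0.227 in the mutant and 15.5% ± 0.512 in Westar (SD, n = 3 each; permutation test, exact and two-sided, p = 0.3; the design cannot go below 0.1). Genes of the 5 largest scaffolds stood at 58.5% ± 0.264 in the mutant and 58.9% ± 0.48 in Westar (SD, n = 3 each; exact permutation p = 0.5). Genes of small scaffolds stood at 2.54% ± 0.228 in the mutant and 2.98% ± 0.523 in Westar (SD, n = 3 each; exact permutation p = 0.3). Without Westar library 1, the deepest, the difference over all scaffold genes was -0.13 points in place of -0.42. After every library was thinned at random to the smallest total, 14.96%, 14.8% and 14.8% of scaffold genes had 10 counts in mutant libraries 1, 2 and 3, and 14.9%, 14.8% and 14.96% in Westar libraries 1, 2 and 3. Over all scaffold genes Westar library 1 then lay within the range of the others, and the difference was -0.0328 points (exact permutation p = 1). By class Westar library 1 was still at an end of the range, by a small margin and in a single random draw. On small scaffolds it was the highest, at 2.74% against 2.28% to 2.6% in the other libraries. On the 5 largest it was the lowest, at 57.2% against 57.6% to 58.4%. Small scaffolds had thinned shares of 2.39% in the mutant and 2.58% in Westar (exact permutation p = 0.3). On the 5 largest scaffolds the sign turned with thinning, with 58.1% in the mutant and 57.6% in Westar (exact permutation p = 0.3).

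Scaffold genes took a nearly constant share of each library. They held 1.93%, 1.95% and 1.97% of the counts in mutant libraries 1, 2 and 3, and 1.95%, 1.95% and 1.94% in Westar libraries 1, 2 and 3. The 95% Wilson intervals of these shares, which cover counting error only, reached at most 0.00682 points to either side. The mutant averaged 1.95% ± 0.0186 and Westar 1.95% ± 0.0102 (SD, n = 3 each; exact permutation p = 1). The share on small scaffolds was 0.103% ± 0.00931 in the mutant and 0.0985% ± 0.00597 in Westar (SD, n = 3 each; exact permutation p = 0.5). With these 2 shares, the share on the 5 largest scaffolds and the 3 detected shares above, 6 such comparisons of the mutant with Westar were made, and the lowest p after adjustment over the 6 was 0.75.

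Bnascaffold286 dominated the class. It carried 712 genes, of which 471 were tested (66.2%), and took 55.9% of all scaffold counts. Bnascaffold1716 had 117 of 204 genes tested (57.4%) and 16.9% of the scaffold counts. Bnascaffold2904 had 130 of 279 tested (46.6%) and 11.3% of the counts, Bnascaffold1556 had 43 of 76 (56.6%) and 5.47%, and Bnascaffold2730 had 47 of 96 (49%) and 5.19%. Of these 5, only Bnascaffold286 had a tested share outside the range of the 19 chromosomes, which ran from 45.6% to 58.4%. The sixth scaffold by tested genes, Bnascaffold2654, had 9 of 15 genes tested and 0.335% of the counts. No test was made of these differences between single scaffolds and chromosomes.

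The levels of tested genes followed the same division. CPM values (counts scaled to a common library total, with TMM factors) are not per length, since the table gives no gene lengths, and a part of length in the differences between classes was not tested. Tested genes of the 5 largest scaffolds had a median of 10.9 CPM (quartiles 3.86 and 24.1), those of small scaffolds 1.39 CPM (quartiles 0.73 and 3.72), and tested placed genes 8.55 CPM (quartiles 3.1 and 20.5). Among the 5 largest, the median ran from 8.3 CPM on Bnascaffold2904 to 13.2 CPM on Bnascaffold1556. The median of log2(CPM + 0.5) over tested genes was higher on the 5 largest scaffolds than among placed genes by 0.32 (SD 0.0363, higher in 6 of 6 libraries; exact sign-flip permutation p = 0.031, adjusted over the 9 comparisons 0.0469). On small scaffolds it was lower than among placed genes, with a difference of -2.23 (SD 0.111, lower in 6 of 6; exact sign-flip permutation p = 0.031, adjusted 0.0469). Over all tested scaffold genes the difference from placed genes was 0.03 (SD 0.0487; exact sign-flip permutation p = 0.25). That value changed with the set of genes taken. Over all genes with any read it was -2.93 (exact sign-flip permutation p = 0.031), and with another expression filter it was 0.04.

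The scaffold counts were not carried by a few genes. The 5 most abundant scaffold genes took 10.4% of the scaffold level and the first 10 took 16.4%, and 86 genes were needed to reach 50%. All 5 lay on Bnascaffold286 or Bnascaffold1716. The most abundant, Bnascaffold286T0008600WE, had 656, 661 and 700 CPM in the mutant libraries and 654, 617 and 620 CPM in the Westar libraries. Its mutant libraries all lay above its Westar libraries and it did not pass the test (log2 fold change 0.09 ± 0.10 SE, edgeR quasi-likelihood test, adjusted p = 0.759).

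The other 4 abundant genes also did not pass. Bnascaffold1716T0009100WE had 534, 542 and 579 CPM in the mutant and 500.3, 502 and 509 CPM in Westar, with no overlap (log2 fold change 0.13 ± 0.10 SE, edgeR adjusted p = 0.639). Bnascaffold1716T0006700WE had 296, 254 and 303 CPM in the mutant and 289, 334 and 260 CPM in Westar. Bnascaffold286T0021800WE had 310.2, 269 and 293 CPM in the mutant and 232, 318 and 273 CPM in Westar. Bnascaffold1716T0019400WE had 274, 266 and 294 CPM in the mutant and 259, 294 and 293 CPM in Westar. The groups overlapped in these last 3 genes, whose log2 fold changes lay between -0.05 and 0.08.

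On small scaffolds the counts were concentrated. The 6 most abundant genes took at least 50% of the level, and 1 gene took 20.9% of it. This gene, of Bnascaffold648, was chosen after its values were seen. It had 5429, 3607 and 3197 counts in the mutant libraries and 3113, 4811 and 3091 counts in the Westar libraries. Mutant library 1 and Westar library 2 were high, and the groups overlapped (log2 fold change 0.30 ± 0.27 SE, edgeR adjusted p = 0.718). The next, a gene of Bnascaffold2620 also chosen after its values were seen, had 164, 172 and 179.9 CPM in the mutant and 162, 148 and 145 CPM in Westar. The groups did not overlap, and it did not pass (log2 fold change 0.18 ± 0.10 SE, edgeR adjusted p = 0.523).

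A single scaffold gene changed between the mutant and Westar. Of the 942 tested, 1 rose and 0 fell (edgeR quasi-likelihood test, p under 0.05 after adjustment over all 48824 genes tested). This is 0.106%, against 0.197% of all genes tested. Over all genes 0.127% rose and 0.0696% fell. The share called was thus below that of all genes, by less than 1 gene. An unadjusted p under 0.05 was reached by 117 scaffold genes (12.4%), 62 higher and 55 lower in the mutant, against 11.5% of all genes tested. The groups did not overlap in CPM at 166 scaffold genes (17.6%, 88 higher and 78 lower in the mutant), against 18.1% of all genes tested. A fitted change of at least 2-fold was seen at 27 scaffold genes (2.87%), against 3.06% of all genes tested. By scaffold size, the shares on small scaffolds rest on few genes, with 134 tested. A change of at least 2-fold was seen at 2.23% of tested genes on the 5 largest scaffolds (18 genes). On small ones, where levels were lower, it was 6.72% (9 genes). The groups did not overlap at 18.6% of genes on the 5 largest, close to the share of all genes. On small scaffolds this was 11.9% (16 genes). No test was made of these shares, and a part of the level in them was not tested. The median log2 fold change was 0.002 over tested scaffold genes and 0.001 over tested placed genes.

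The number called depended on the tool and on single libraries. DESeq2 called 13 of the 942 genes (7 rose, 1.38%), against 1.61% of all genes tested with that tool, and limma-voom called 0, against 0.139% of all genes tested. Without mutant library 3 edgeR called 2 scaffold genes, against 0.234% of all genes tested in that fit. Without Westar library 2 it called 2 others, against 0.11% of all genes. Without any other single library it called 0 on scaffolds, and between 0.0269% and 0.0498% of all genes.

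**Figure D3:**
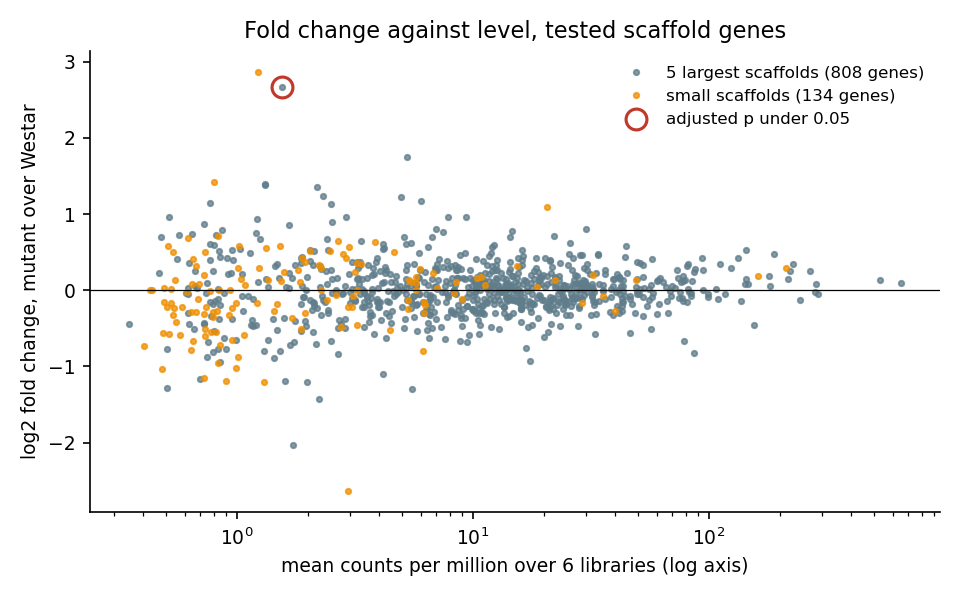
Each point is a tested scaffold gene, with the mean CPM over 6 libraries on a log axis and the log2 fold change of the mutant over Westar on the vertical axis; the ring marks the gene with an adjusted p under 0.05. The ringed gene lies at 1.55 CPM and 2.67, and most wide fold changes lie at low levels.

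The gene that rose was Bnascaffold286T0027200WE. It had 46, 62 and 34 counts in mutant libraries 1, 2 and 3, and 10, 9 and 6 counts in Westar libraries 1, 2 and 3. Every mutant library lay above every Westar library. In CPM this was 2.68 ± 0.59 in the mutant and 0.417 ± 0.097 in Westar (SD, n = 3 each), a log2 fold change of 2.67 ± 0.38 SE (edgeR adjusted p = 0.0351). The call was lost with limma-voom (adjusted p = 0.0657) and without any 1 library other than mutant library 3 (adjusted p 0.0744 to 0.188). Without mutant library 3 it was kept (edgeR adjusted p = 0.0381). The log2 fold change lay between 2.49 and 2.83 in these fits.

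None of its nearest neighbours by ID number passed the test. The gene numbered just before it had 0 counts in all 6 libraries, and the one before that had 0 counts in the mutant and 3 in Westar, too few for a test. The gene numbered just after it had 324 counts over the mutant libraries and 324 over the Westar libraries (log2 fold change of 0.18; edgeR, adjusted p = 0.807). The next had 30.5, 33.8 and 35.7 CPM in the mutant libraries and 29.4, 26.7 and 26.9 CPM in the Westar libraries. Every mutant library lay above every Westar library there, at a much smaller log2 fold change of 0.27 (edgeR adjusted p = 0.419). ID numbers were read as the order along the scaffold, which the table does not state.

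The gene with the next smallest p among those higher in the mutant did not pass. Bnascaffold286T0049600WE had 645, 893 and 501 counts in the mutant and 472, 402 and 443 counts in Westar. In CPM this was 38.4 ± 8.27 in the mutant and 22.1 ± 2.17 in Westar (SD, n = 3 each), with no overlap between the groups. Its log2 fold change was 0.80 ± 0.17 SE (edgeR adjusted p = 0.117). DESeq2 called it (adjusted p = 0.00254).

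Among genes lower in the mutant, 0 passed. The smallest p belonged to Bnascaffold683T0000200WE, on a small scaffold, with 30, 9 and 4 counts in mutant libraries 1, 2 and 3 and 145, 102 and 65 counts in Westar libraries 1, 2 and 3. The groups did not overlap, and mutant library 1 was the highest of its group. In CPM this was 0.808 ± 0.777 in the mutant and 5.11 ± 1.42 in Westar (SD, n = 3 each), a log2 fold change of -2.64 ± 0.53 SE (edgeR adjusted p = 0.11). DESeq2 called it (adjusted p = 2.16e-05). Leaving out 1 library gave edgeR adjusted p values of 0.0624, without mutant library 1, to 0.423, without Westar library 1.

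Bnascaffold286T0062900WE had the second smallest p on that side. It had 263, 215 and 154 counts in the mutant and 482, 484 and 394 counts in Westar. In CPM this was 12 ± 2.66 in the mutant and 22.9 ± 4.15 in Westar (SD, n = 3 each), with no overlap. Its log2 fold change was -0.93 ± 0.19 SE (edgeR adjusted p = 0.115). DESeq2 called it (adjusted p = 0.00208).

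**Figure D4:**
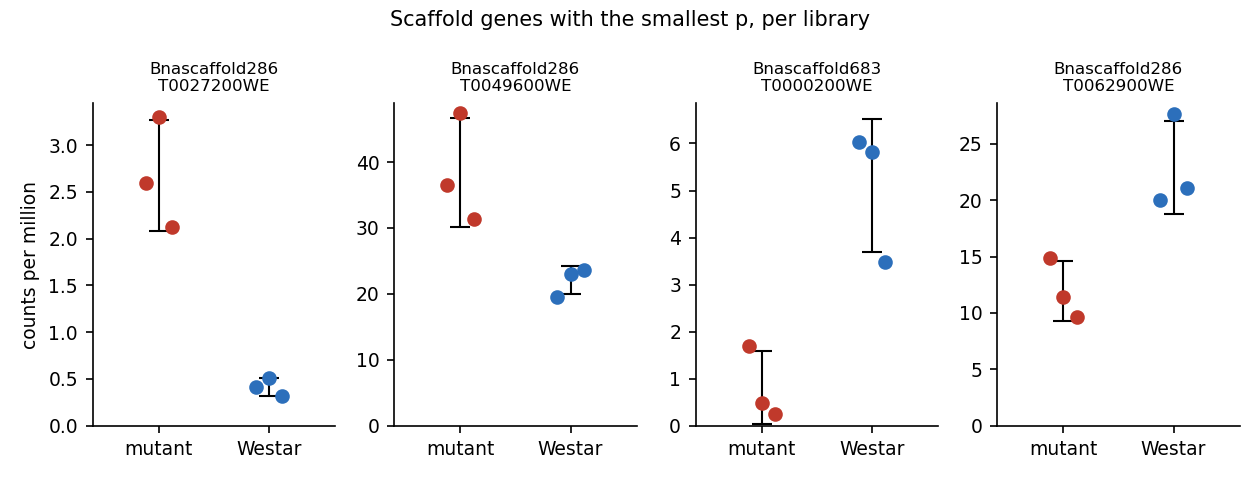
Points are libraries, mutant left and Westar right, in CPM on a linear axis from 0 that differs between panels; bars are the mean ± SD of 3 libraries. The groups do not overlap in any of the 4 panels, and only the first gene, at 2.68 CPM in the mutant and 0.417 CPM in Westar, passed the test.

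Genes with reads in 1 genotype only made up shares of the scaffold genes that were near or below those over all genes. Genes at 10 or more counts in each library of 1 genotype, and at 0 throughout the other, numbered 0 of 942 tested scaffold genes, against 0.0328% of all genes tested, a share at which less than 1 gene would be counted on scaffolds. Of 1350 scaffold genes with at least 10 counts in total, 3 had reads in the mutant alone and 1 in Westar alone (0.296%), against 0.35% of all genes with that total. The largest was a gene of Bnascaffold3 with 16, 4 and 17 counts in the mutant libraries and 0 in each Westar library. Of these 4 genes, 0 passed the filter. When every gene with a read was tested, edgeR called the gene of Bnascaffold3 (log2 fold change 6.77, adjusted p = 0.0447). In that fit 0.665% of all genes were called. Genes with 10 or more counts in each library of 1 group and fewer in each library of the other numbered 0 for the mutant and 2 for Westar on scaffolds (0.212% of those tested), against 0.512% of all genes tested.

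No whole scaffold passed the test. Counts were summed per scaffold and per chromosome, and 118 scaffold sums and 19 chromosome sums were tested. The number of sums called was 0 (0% of 137; edgeR quasi-likelihood test with Benjamini-Hochberg adjustment), and no other tool was run on the sums. An unadjusted p under 0.05 was reached by 8 of 118 scaffold sums, 4 of them higher in the mutant, and by 4 of 19 chromosome sums. Over all 137 sums the share was 8.76%. The smallest p belonged to Bnascaffold683, with 30, 9 and 4 counts in the mutant and 145, 102 and 67 in Westar (log2 fold change -2.65 ± 0.58 SE, edgeR adjusted p = 0.253), nearly all from the gene given above. Bnascaffold2381 had 115, 121 and 91 counts in the mutant and 114, 70 and 69 in Westar (log2 fold change 0.58 ± 0.18 SE, edgeR adjusted p = 0.457). Bnascaffold2390 had 14, 9 and 6 counts in the mutant and 35, 20 and 22 in Westar (log2 fold change -1.19 ± 0.40 SE, edgeR adjusted p = 0.457). Without mutant library 1, 2 of 130 sums were called (1.54%). They were that of Bnascaffold683 (log2 fold change -3.77, edgeR adjusted p = 0.00245) and that of Bnascaffold142 (1.87, edgeR adjusted p = 0.0373).

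The sums of the 5 largest scaffolds moved little. Bnascaffold286 had 11145, 11172 and 10850 CPM in the mutant and 10596, 11044 and 10612 CPM in Westar, so the groups overlapped (log2 fold change 0.04 ± 0.03 SE, edgeR adjusted p = 0.681). Bnascaffold2904 had 2281, 2271 and 2226 CPM in the mutant and 2159, 2172 and 2142 CPM in Westar, with no overlap (log2 fold change 0.07 ± 0.03 SE, edgeR adjusted p = 0.537). This was not particular to it. Chromosomes A03 and C03, among others, were also higher in the mutant with no overlap (log2 fold changes 0.0697 and 0.0648, edgeR adjusted p = 0.457 for each). Every chromosome sum but that of A10 (-0.05) had a positive log2 fold change. The sums of Bnascaffold1716, Bnascaffold1556 and Bnascaffold2730 had log2 fold changes of 0.05 ± 0.04, -0.04 ± 0.04 and 0.02 ± 0.04 SE, with edgeR adjusted p of 0.787, 0.787 and 0.904.

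The large scaffolds varied in how many of their genes reached an unadjusted p under 0.05. On Bnascaffold1716 this was 24 of 117 genes (20.5%), 14 higher and 10 lower in the mutant. On Bnascaffold286 it was 63 of 471 (13.4%), 34 higher and 29 lower. Bnascaffold2904 had 12 of 130 (9.23%), Bnascaffold1556 had 4 of 43 (9.3%) and Bnascaffold2730 had 3 of 47 (6.38%). The 19 chromosomes ran from 9.64% to 12.4%. Genes of 1 scaffold are not independent, and no test was made of these shares.

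None of the 5 largest scaffolds lay as low as A10 in mutant library 3, the library with the shift on A10. For each library, genes were set against the median of the other 5 libraries, as log2(CPM + 0.5), and the median was taken per scaffold. Over the 5 scaffolds and 6 libraries these medians ran from -0.09 (Bnascaffold1556 in mutant library 1, 43 genes) to 0.08 (Bnascaffold2730 in mutant library 3, 47 genes). In mutant library 3 they were 0.01 on Bnascaffold286, 0.04 on Bnascaffold2904, 0.04 on Bnascaffold1716, 0.08 on Bnascaffold2730 and -0.01 on Bnascaffold1556, where A10 was at -0.32. In Westar library 1 they were between -0.05 and 0.001. Chromosome medians, apart from A10 and from C09 in Westar library 1, ran from -0.03 to 0.04.

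**Figure D5:**
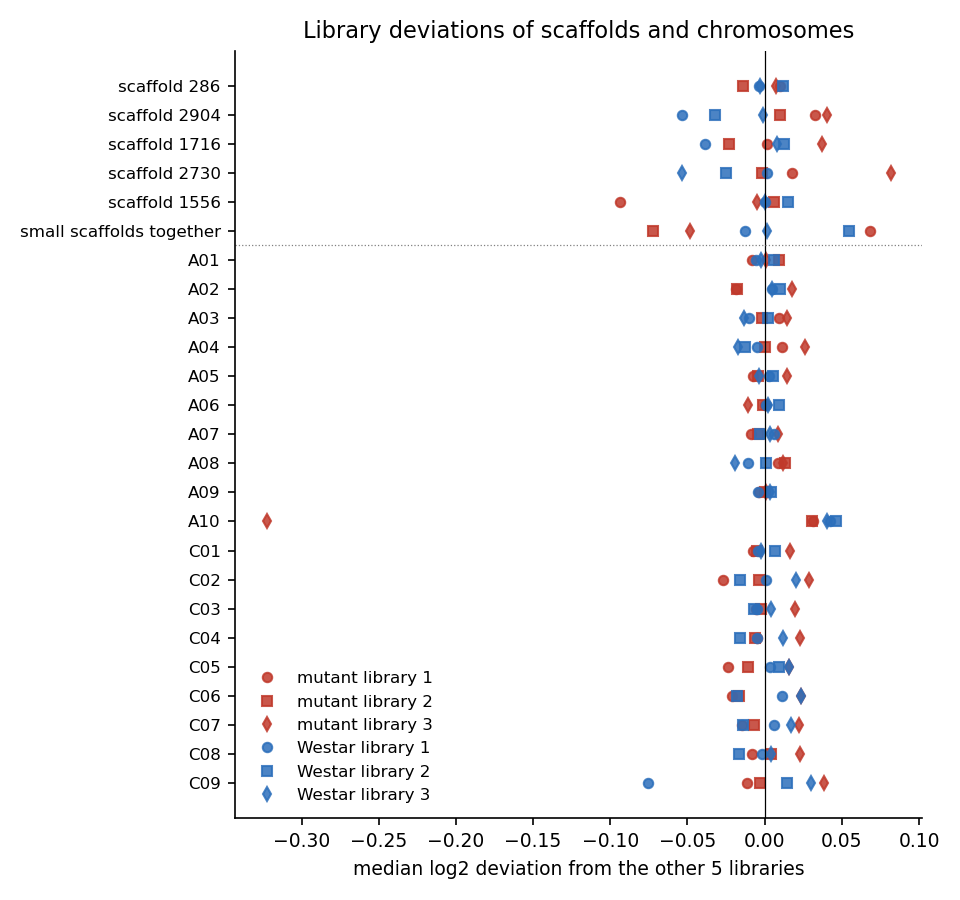
Each symbol is the median log2 deviation of 1 library from the other 5 over the tested genes of a scaffold, of all small scaffolds together, or of a chromosome (below the dotted line); mutant libraries are red and Westar libraries blue. A10 in mutant library 3 lies at -0.32, and the 5 largest scaffolds lie between -0.09 and 0.08.

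Tested genes of small scaffolds scattered more between libraries of a group than placed genes. The median absolute deviation of log2(CPM + 0.5) from the group mean was 0.18 on small scaffolds and 0.132 among placed genes, averaged over libraries, a difference of 0.048 (SD 0.0185, higher in 6 of 6 libraries; exact sign-flip permutation p = 0.031, adjusted over the 9 comparisons 0.0469). With a pseudocount of 2 CPM in place of 0.5 CPM the direction turned, to -0.00539. Levels differed as well: 41% of tested genes on small scaffolds were below 1 CPM, against 7.76% of tested placed genes. A part of level in the scatter was not tested, apart from a comparison among genes of 1 to 10 CPM. There the difference, averaged over libraries, was 0.0251 (exact sign-flip permutation p = 0.031, not adjusted). Among genes of 1 to 10 CPM the scatter was 0.187 on small scaffolds (65 genes) and 0.161 among placed genes (22335 genes), and below 1 CPM it was 0.18 on small scaffolds (55 genes) and 0.22 among placed genes (3718 genes). At 10 CPM or more it was 0.124 on small scaffolds (14 genes) and 0.0991 among placed genes (21829 genes). On the 5 largest scaffolds the scatter averaged 0.126, and its difference from placed genes did not pass (-0.00606, lower in 5 of 6 libraries; exact sign-flip permutation p = 0.0625). Each deviation was taken from the mean of the library's own group, so the values within a group are tied. The sign-flip tests of scatter treat the 6 libraries as independent, so their p-values can overstate the evidence.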

How the data were processed

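The values are raw counts for each gene ID, in a single table that the authors deposited with a column for each library. HISAT2 2.2.1 and featureCounts are listed, per the submitters' processing notes. The sources used here do not state the build and annotation, the strand option, or how multi-mapping reads were counted. Reads of near-identical copies may have been split, shared or dropped, which can move counts between scaffold and placed copies. Numbered suffixes on 74 scaffold IDs were kept as separate genes (4 tested).

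Genes with 10 or more counts in at least 3 of 6 libraries were tested in edgeR 4.0.16 (R 4.3.3) by quasi-likelihood, with TMM scaling, a term for group and p-values adjusted by Benjamini-Hochberg over all genes. Standard errors are the log2 fold change over the square root of F. The script was tested on simulated data. Single values per library were compared by exact permutation tests. Alternatives used DESeq2 1.42.0 and limma 3.58.1, other scalings and filters, a replicate block, left-out libraries and thinned counts.

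By rule, at most 2 genes per direction were named (called ones first, then the smallest p), with the 5 most abundant genes, the scaffolds with most tested genes and the 3 sums of smallest p. The members and lists were chosen with earlier results of these data known.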

Additional observations from a re-analysis of the deposited data

How the results depend on the processing

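The 1 scaffold gene called became 8 when every gene with a read was tested (4 rose), against 0.665% of all 67780 genes. With DESeq2 the number was 13 (7 rose), against 1.61% of all genes tested. The number was 0 with limma-voom, against 0.139% of all genes tested, and 0 at an adjusted p under 0.01, against 0.0307%. Without Westar library 1 and mutant library 3 together (chosen with the data in view) it was 0, against 0.0699% of all genes. In that fit Bnascaffold286T0027200WE did not reach the filter. Leaving out 1 library gave 0 to 2 genes, where 13 to 113 of all genes were called. A replicate block gave 0, against 0.102% of all genes, with an adjusted p of 0.0791 for Bnascaffold286T0027200WE. Across genes, deviations from the group mean correlated between same-numbered libraries at -0.149, -0.0926 and 0.154, so the numbers were not taken to pair the libraries. The scaffold sums called stayed at 0 with library-size scaling, the block and the stricter threshold. With 1 library left out they were 0 to 2, where at most 1.54% of all sums were called. The cause was not tested.

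The difference in the share of counts on scaffolds was 0.0013 percentage points, turned to -0.00226 without the 5 most abundant genes, and ran from -0.00689 to 0.0114 with 1 library left out. The median level over all genes with any read, in place of tested genes, turned to -2.93, and the scatter with a pseudocount of 2 CPM to -0.00539. With 1 library left out, the smallest p possible over 5 libraries is 0.0625, and the values ran from -35.1 to -34.96 (detected share, scaffold minus placed genes), 8.29 to 8.47 (5 largest scaffolds), -47.7 to -47.5 (small scaffolds) and 0.0432 to 0.0522 (scatter). Of the abundant genes, 3 changed sign. With 1 library left out, the log2 fold change ran from -0.131 to 0.0497 for Bnascaffold1716T0006700WE, from -0.0236 to 0.203 for Bnascaffold286T0021800WE and from -0.0772 to 0.011 for Bnascaffold1716T0019400WE. It was -0.0289 for Bnascaffold286T0021800WE without Westar library 1 and mutant library 3.

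Depth limits what can be said of the 1631 scaffold genes with reads below the filter.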

Other observations

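Low-level reads on small scaffolds were most frequent in Westar library 1. The 1405 genes of small scaffolds that had reads but stayed below the filter summed to 98.2, 83.8 and 81.1 CPM in mutant libraries 1, 2 and 3, and to 116, 73.5 and 85.1 CPM in Westar libraries 1, 2 and 3. The 226 such genes of the 5 largest scaffolds summed to 29.1, 29.9 and 30.8 CPM in the mutant libraries and to 25.2, 27.8 and 29.1 CPM in the Westar libraries, so Westar library 1 was the lowest there. After every library was thinned to the smallest total, 19.2% of small-scaffold genes had a read in Westar library 1, against 14.3% and 16.3% in Westar libraries 2 and 3 and 15.1% to 16.9% in the mutant libraries. Before thinning the share in Westar library 1 was 22.1%. Among placed genes the thinned share was 60.9% in Westar library 1 and 60.4% to 61.3% in the other libraries. This was seen in 1 library, and its cause was not tested.

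Without Westar library 2, edgeR called 2 scaffold genes that neither edgeR nor DESeq2 called on all 6 libraries, both higher in the mutant. A gene of Bnascaffold286 had 4141, 4004 and 3383 counts in the mutant libraries and 1606, 5390 and 1880 counts in Westar libraries 1, 2 and 3, and a gene of Bnascaffold1716 had 4465, 4901 and 4017 counts in the mutant and 2951, 5912 and 2639 counts in Westar. In both genes Westar library 2 was the highest of the 6 libraries and the other 2 Westar libraries were the lowest. Their log2 fold changes were 1.39 and 0.95 without that library (edgeR adjusted p = 0.0419 for each) and 0.47 and 0.35 with it (edgeR adjusted p = 0.729 and 0.72). Both were chosen after their values were seen.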
